A study of Zea mays with 2 samples.

Results

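Opaque2 (o2) and 4 partner regulators of storage genes were followed in maize endosperm, the starch- and protein-storing tissue of the kernel. The 5 genes were picked by identifier and name, as activators of storage genes in starchy endosperm, from 41406 gene models: o2 (GRMZM2G015534), pbf1 (GRMZM2G146283), ohp1 (GRMZM2G016150), ohp2 (GRMZM2G007063) and fl3 (GRMZM2G006585). The study compared mRNA of endosperm from the defective kernel mutant dek44 with that of wild-type endosperm, both collected 15 days after pollination (Zea mays). Triplicate profiling is mentioned in the series text, but the labels and files hold 1 library and 1 set of values for each genotype. The sources used here do not say whether a library pools kernels or plants, or what the inbred background and the mutant allele were. The mutated gene is not named in the labels, and its transcript was not analysed here.

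Opaque2 is a bZIP transcription factor that activates zein genes, which encode the prolamin storage proteins of maize, along with genes of amino acid and carbon metabolism. PBF1 (prolamin-box binding factor) is a Dof zinc finger protein that binds the prolamin box of zein promoters and acts with Opaque2. OHP1 and OHP2 are bZIP proteins that can pair with Opaque2, and FL3 (floury3) is a PLATZ protein known to interact with factors of RNA polymerase III.

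Values are RPKM, reads scaled by gene length and library total, and the depth worked back from them was 22612657 reads in the dek44 library and 20861135 in the wild-type one. With 1 library per genotype no test could be made, so every difference describes these libraries and not the genotypes, and intervals cover counting error only. A gene was called expressed at an RPKM of at least 1 in either library, which held for 30136 genes and for 5 of the 5 regulators. A log2 ratio below is the difference of log2(RPKM + 1), dek44 minus wild type, a scale on which low genes appear to change less than they do. The median ratio of expressed genes was 0.62, so ratios are also given relative to it. RPKM is a share of the library, so the level of a transcript per cell was not measured, and fewer cells of a type and less RNA per cell cannot be told apart.

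Of the 5 regulators, o2 and fl3 were at least 2-fold lower in dek44, pbf1 lay at the threshold, ohp1 differed little and ohp2 was higher. The count was 2 of 5 lower and 0 of 5 higher, against 3.7% lower and 31.6% higher among all expressed genes. With the median ratio of all genes set to 0 it was 3 of 5 lower, with pbf1 added, and 0 of 5 higher, against 10.9% lower and 12.3% higher. Of all genes past 2-fold, 89.5% were higher with RPKM as deposited and 53.0% with the median set to 0. The median ratio of the 5 was -0.98, which is -1.61 relative to all expressed genes. The 5 were chosen with earlier results in view, so these shares describe them and support nothing further.

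**Figure D1:**
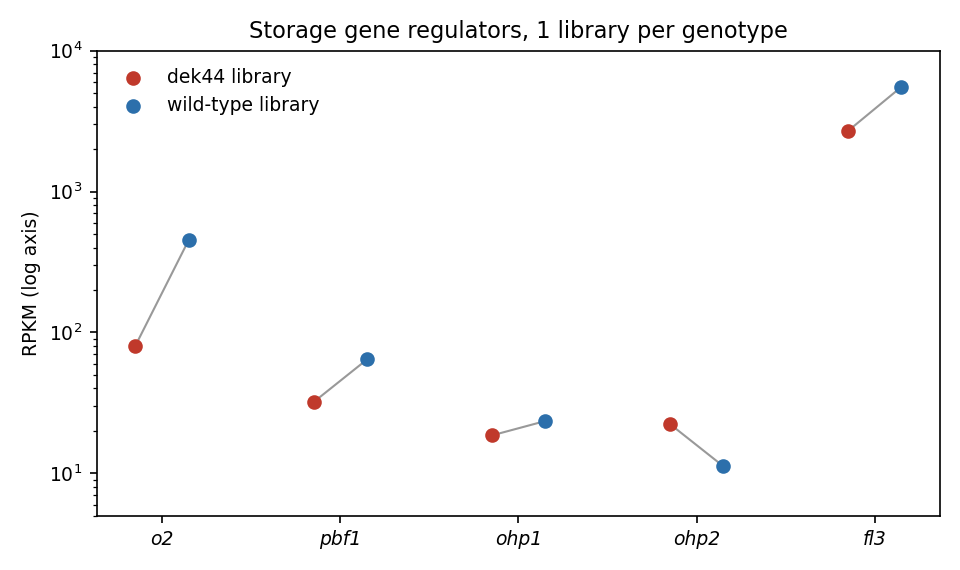
RPKM of each regulator on a log axis, with the dek44 library left of the wild-type library and 1 point per library. The dek44 point is the lower one for o2, pbf1, ohp1 and fl3 and the higher one for ohp2, and fl3 lies far above the others in both libraries.

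The regulator with the widest gap between the libraries was o2. It had 80.7 RPKM in dek44 and 456 RPKM in wild type, 5.66-fold lower in dek44 (95% interval 5.42 to 5.91). The log2 ratio was -2.49, or -3.11 relative to the median of all genes. Among expressed genes o2 held rank 2477 in dek44 and rank 212 in wild type, or within the top 8.22% in dek44 and the top 0.703% in wild type. Only 160 of the 30136 expressed genes (0.531%) had a lower ratio. Among the 1550 genes with a mean RPKM from 100 to 1000, the class that holds o2, 1.16% had a lower ratio. In that class 6.13% were past 2-fold on the lower side and 38.6% on the higher.

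The Dof factor gene pbf1 had 32.02 RPKM in dek44 and 64.3 RPKM in wild type. Its plain fold was 2.01-fold lower (1.83 to 2.20), while the log2 ratio with the added 1 was -0.98, just short of the 2-fold threshold. Relative to the median of all genes it was -1.61, and 3.81% of expressed genes had a lower ratio. The identity of this gene model carries a doubt. The RefSeq gene table lists both GRMZM2G146283 and GRMZM2G146267 under the entry named pbf1 and again under an unnamed entry that overlaps it. GRMZM2G146267 had 21.1 RPKM in dek44 and 17.4 RPKM in wild type, 1.21-fold higher (1.13 to 1.30). With RPKM as deposited the models thus went in opposite directions. Relative to the median of all genes both were lower, with GRMZM2G146267 at -0.36. Whether the models themselves overlap was not checked. Since the sources used here do not say whether counting used strand, reads of models that overlap could not be told apart.

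The Opaque2 heterodimerizing protein genes differed from each other. The level of ohp1 was 18.6 RPKM in dek44 and 23.5 RPKM in wild type, 1.26-fold lower with an interval that includes no difference (0.963 to 1.66). That interval rests on 102 and 119 reads, the smallest that the RPKM allows in dek44 and in wild type, and true reads may be a multiple. With more reads the interval would be narrower and could exclude no difference. The level of ohp2 was 22.4 RPKM in dek44 and 11.2 RPKM in wild type, 1.996-fold higher (1.73 to 2.30), with a log2 ratio of 0.94. Relative to the median of all genes ohp1 was at -0.95 and ohp2 at 0.31. A ratio like that of ohp2 was common, as 65.6% of expressed genes had a lower one, and for ohp1 11.9% did. Near-identical sequence stretches could move reads between ohp1 and ohp2, and how such reads were counted is not stated in those sources.

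The PLATZ gene fl3 was the most abundant of the 5 and stayed among the most abundant transcripts of either library. It had 2696 RPKM in dek44 and 5545 RPKM in wild type, 2.06-fold lower (2.01 to 2.10). Its log2 ratio was -1.04, or -1.66 relative to the median of all genes. The rank among expressed genes was 28 in dek44 and 30 in wild type, and fl3 made up 0.204% of summed RPKM in dek44 and 0.400% in wild type. In contrast to o2, a lower value was frequent in its class: of the 106 genes whose mean RPKM reached 1000, 41.5% were at least 2-fold lower and 14.2% as far higher, and 39.6% had a ratio below that of fl3. The class median was -0.61. Abundant zein genes, which were lower in dek44 as given below, are part of this class. The share of the class without zeins was not computed. Among the 11139 genes with a mean RPKM from 10 to 100, the class of pbf1, ohp1 and ohp2, 3.62% were past 2-fold on the lower side and 28.7% on the higher.

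**Figure D2:**
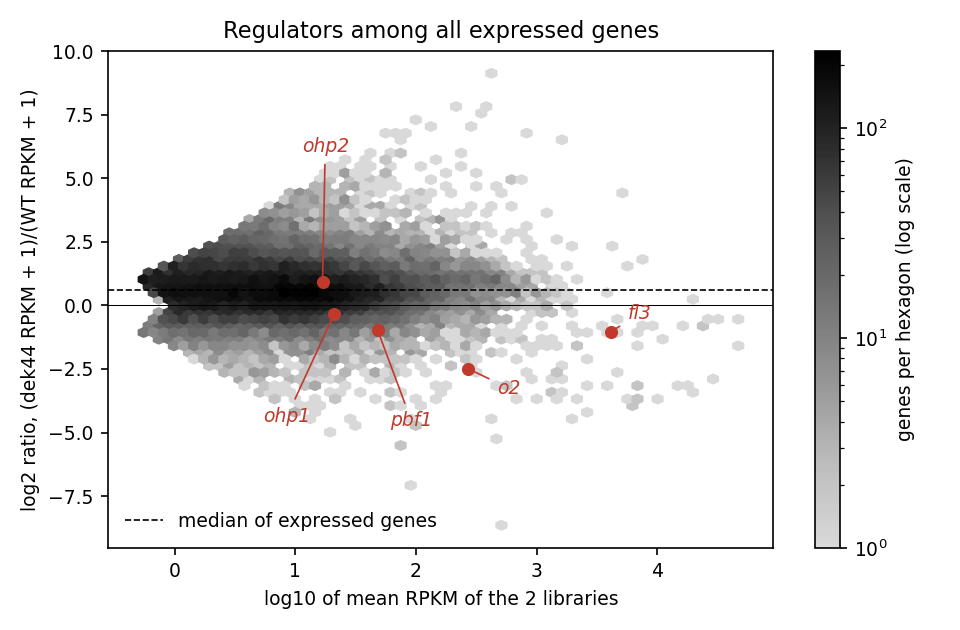
Log2 ratio of dek44 over wild type against log10 of the mean RPKM of both libraries, for 30136 expressed genes as hexagons shaded by the number of genes, with the regulators as points. The points of o2 and fl3 lie in the sparsely filled right part of the plot, o2 near the lower edge of genes at its level, while ohp2 lies close to the dashed median of 0.62.

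The call of pbf1 depended on the scaling. The summed zeins, 48597 RPKM in dek44 and 300897 RPKM in wild type, weigh on the RPKM of all other genes. The log2 ratio of pbf1 was -1.21 with RPKM rescaled to the sum of all genes but the zeins found by name. It was -1.59 with RPKM rescaled to the sum of all but the 100 most abundant genes. Both were past 2-fold. Under those scalings o2 was at -2.71 and -3.10, fl3 at -1.27 and -1.67, ohp1 at -0.54 and -0.91 and ohp2 at 0.72 and 0.34.

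**Figure D3:**
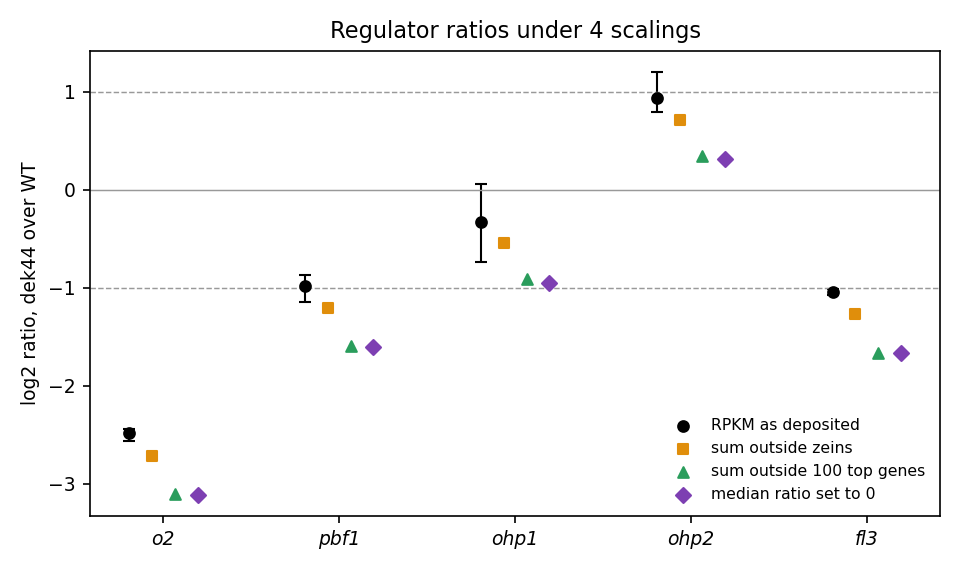
Log2 ratio of dek44 over wild type of each regulator under RPKM as deposited and 3 other scalings, with 95% counting intervals of the plain fold beside the deposited values and dashed lines at 2-fold. The 3 other scalings place every regulator lower than the deposited values do, ohp2 stays above 0, and pbf1 passes the line at -1 under the 3 other than the deposited one.

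Ratios between regulators inside a library do not depend on how the libraries are scaled against each other. Of the 10 pairs, 9 differed between the libraries by more than their counting interval. The level of o2 was 2.52 times that of pbf1 in dek44 and 7.09 times in wild type, a ratio 2.82-fold lower in dek44 (2.55 to 3.12). Set against ohp2, o2 was 3.60 times as high in dek44 and 40.7 times in wild type, 11.3-fold lower (9.75 to 13.1). The order of the OHP genes was reversed: ohp1 was at 0.829 times the level of ohp2 in dek44 and 2.09 times in wild type, 2.52-fold lower (1.87 to 3.40).

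By RPKM, the bZIP genes o2, ohp1 and ohp2 summed to 122 RPKM in dek44 and 491 RPKM in wild type. Of that sum o2 made up 66.3% in dek44 and 92.9% in wild type. The share of ohp1 was 15.3% in dek44 and 4.78% in wild type, and that of ohp2 was 18.4% in dek44 and 2.28% in wild type. The OHP genes on their own summed to 40.9 RPKM in dek44 and 34.7 RPKM in wild type, so the difference in the sum lay in o2.

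The pair that kept its ratio was pbf1 and fl3. The level of fl3 was 84.2 times that of pbf1 in dek44 and 86.2 times in wild type. The ratio of pbf1 to fl3 in dek44 was 1.02 times that in wild type, with an interval (0.932 to 1.13) that includes no difference. Set against o2, fl3 was 33.4 times as high in dek44 and 12.2 times in wild type.

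**Figure D4:**
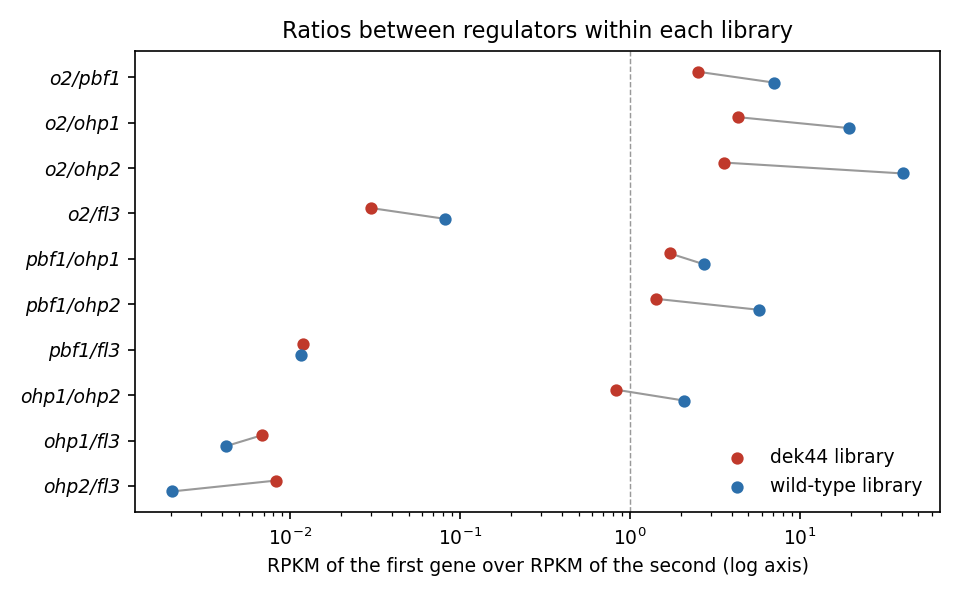
RPKM ratio of each pair of regulators within a library on a log axis, with the dek44 point above the wild-type point in each row. The points of pbf1/fl3 nearly coincide, those of ohp1/ohp2 lie on either side of 1, and the widest gap is that of o2/ohp2.

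The zein genes, among which are targets of Opaque2 and of PBF1, were found by name. Of these, 28 of 29 were at least 2-fold lower in dek44, with 0 higher. The shares among all expressed genes were 3.7% lower and 31.6% higher. Of the 29, 25 had a plain ratio below that of o2 itself. The z1C genes, the alpha zein subfamily that depends most directly on Opaque2, summed to 3882 RPKM in dek44 and 37401 RPKM in wild type, 9.63-fold lower, with 12 of 12 past 2-fold. Per RPKM of o2 that is 48.1 in dek44 and 82.0 in wild type. The z1A alpha zeins were 9 of 9 lower, with a summed level of 6893 RPKM in dek44 and 78508 RPKM in wild type, 11.4-fold lower, or 85.5 per RPKM of o2 in dek44 and 172 in wild type. Of the 3 z1B genes, 2 were lower, with a sum of 23.7 RPKM in dek44 and 92.7 RPKM in wild type.

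The gamma, beta and delta zeins together were 4.89-fold lower as a sum, at 37798 RPKM in dek44 and 184894 RPKM in wild type. Of these genes 5 of 5 were at least 2-fold lower, against 3.7% of all expressed genes. Their sum per RPKM of o2 was 469 in dek44 and 405 in wild type. The largest part of the sum was gz27, at 26132 RPKM in dek44 and 77278 RPKM in wild type, 2.96-fold lower. Every other gene of this group was lower by more than the 5.66-fold of o2, from 7.37-fold for bz15 to 18.9-fold for gz50. The sum is thus no measure of the group apart from gz27. The gamma zein gene gz27 (GRMZM2G138727), whose promoter carries the prolamin box bound by PBF1, was at 816 times the level of pbf1 in dek44 and 1202 times in wild type, 1.47-fold lower (1.34 to 1.61). Set against o2 it went the other way, at 324 times the level of o2 in dek44 and 169 times in wild type, 1.91-fold higher (1.83 to 1.998). Zein copies are nearly identical, so reads may have moved between members and class sums are firmer than single genes. Zein genes that carry no such name are not in these sums.

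The other known Opaque2 targets differed among themselves. Of the 7 expressed genes found by name, 1 was at least 2-fold lower and 1 higher. Among all expressed genes 3.7% were lower and 31.6% higher. Of the 8 identifiers found, 4 match a target by name but were not taken as one. Without them 1 of 4 was lower and 0 higher. The gene of the ribosome-inactivating protein b-32 (rip1, GRMZM2G063536) had 17.7 RPKM in dek44 and 96.5 RPKM in wild type, 5.46-fold lower. Its level was 0.219 times that of o2 in dek44 and 0.211 times in wild type, a ratio of 1.04 between the libraries (0.919 to 1.17). The lysine-degrading enzyme gene lkrsdh1 (GRMZM2G181362) had 52.2 RPKM in dek44 and 96.2 RPKM in wild type, 1.84-fold lower (1.77 to 1.92). Relative to the median of all genes its log2 ratio was -1.49, past 2-fold.

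Both genes of pyruvate orthophosphate dikinase, which interconverts pyruvate and phosphoenolpyruvate, remained abundant in dek44. The gene named cyppdkZm1, and also C4ppdkZm1 (GRMZM2G306345), had 425 RPKM in dek44 and 472 RPKM in wild type. Its log2 ratio was -0.15, or -0.78 relative to the median of all genes. PPDK2 (GRMZM2G097457) had 1175 RPKM in dek44 and 678 RPKM in wild type, 1.73-fold higher (1.71 to 1.75), or 0.17 relative to the median of all genes. Set against o2, PPDK2 was 14.6 times as high in dek44 and 1.49 times in wild type, and cyppdkZm1 was 5.27 times as high in dek44 and 1.04 times in wild type. Of the identifiers matched by name but not taken as targets, those named PDK1 had 41.0 RPKM in dek44 and 19.6 RPKM in wild type (GRMZM2G097821) and 14.6 RPKM in dek44 and 6.99 RPKM in wild type (GRMZM2G107196). The gene GRMZM2G052546, named RIP1, had 14.9 RPKM in dek44 and 11.5 RPKM in wild type, and rip2 (GRMZM2G119705) had 0.831 RPKM in dek44 and 0.948 RPKM in wild type.

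**Figure D5:**
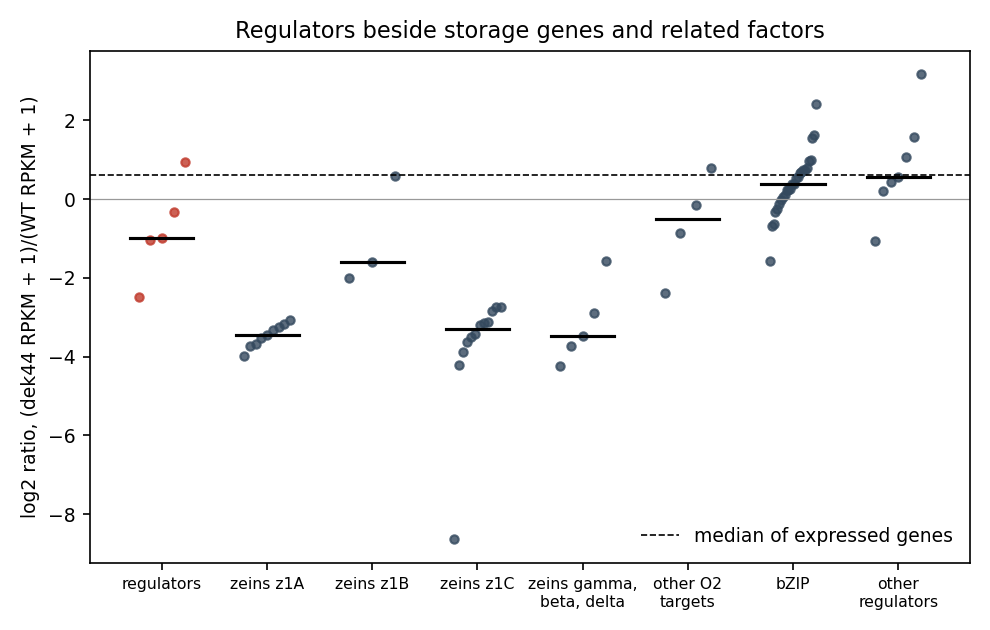
Log2 ratio of dek44 over wild type for each expressed gene of the regulators, the zein classes, the other Opaque2 targets without homonyms, the bZIP genes and other endosperm regulators, with a bar at each median and the median of all expressed genes (0.62) dashed. The zein classes z1A and z1C lie below o2, the lowest of the regulators, while the bZIP genes centre near 0.39.

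Other genes of the bZIP family, to which o2, ohp1 and ohp2 belong, were mostly within 2-fold. Of 26 expressed genes with a bZIP name, 3 were past 2-fold on the higher side and 1 on the lower, with a median log2 ratio of 0.39, against 31.6% higher and 3.7% lower among all expressed genes. Relative to the all-gene median the counts were 2 higher and 3 lower, near the 12.3% and 10.9% of all genes. The lower one was bZIP17 (GRMZM2G103647), at 21.3 RPKM in dek44 and 65.7 RPKM in wild type, 3.09-fold lower (2.75 to 3.46). Higher ones included bZIP61 (GRMZM2G137046), at 5.80 RPKM in dek44 and 0.281 RPKM in wild type, and bZIP110 (GRMZM2G079365), at 10.7 RPKM in dek44 and 2.79 RPKM in wild type. The lowest bZIP ratio was -1.58, above the -2.49 of o2. Of the 3 genes with a Dof name, the family of PBF1, 2 were expressed: DOF36 (GRMZM2G137502) had 108.5 RPKM in dek44 and 73.5 RPKM in wild type, and dof2 (GRMZM2G009406) had 5.86 RPKM in dek44 and no reads in wild type. Set against a floor of 3 wild-type reads, dof2 was 29.8-fold higher. The counting interval, taken from the observed 0 wild-type reads and not from the floor, began at 23.8-fold. No gene was found under a PLATZ name or a name of RNA polymerase III subunits and factors, so neither list gave a value beside fl3.

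Of 7 other regulators of endosperm development found by name, 3 were past 2-fold on the higher side and 1 on the lower, with a median log2 ratio of 0.56. Among all expressed genes the shares were 31.6% higher and 3.7% lower, so counts this small say little about the list. The lower one was nkd1 (GRMZM2G129261), a zinc finger factor of aleurone and starchy endosperm, at 81.3 RPKM in dek44 and 171 RPKM in wild type, 2.11-fold lower (2.02 to 2.20). Its relative nkd2 (GRMZM5G884137) had 16.8 RPKM in dek44 and 14.5 RPKM in wild type. NAC126 (GRMZM2G018436) had 96.8 RPKM in dek44 and 9.83 RPKM in wild type, 9.85-fold higher (7.65 to 12.9). Vp1 (GRMZM2G133398), a B3 factor of seed maturation, had 7.36 RPKM in dek44 and 1.80 RPKM in wild type, and the transfer cell factor MRP1 (GRMZM2G113203) had 1.89 RPKM in dek44 and 0.368 RPKM in wild type. MADS47 (GRMZM2G099577) had 4.25 RPKM in dek44 and 2.86 RPKM in wild type. Relative to the all-gene median, 1 of the 7 was higher, NAC126, and 1 lower, near the 12.3% and 10.9% of all genes.

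Starch synthesis genes, some of which Opaque2 and PBF1 also activate, were lower for 8 of 16 expressed members and higher for 0 once genes that share only a name were left out; with them it was 8 lower and 2 higher of 20. Among all expressed genes 3.7% were lower and 31.6% higher. Relative to the all-gene median, 10 of the 16 were lower and 0 higher, against 10.9% and 12.3%. The log2 ratios of the 16 ran from -4.37 for bt2 (GRMZM2G068506) to 0.79 for sbe3 (GRMZM2G005298), with du1 at -1.31. The level of bt2 was 192 RPKM in dek44 and 3998 RPKM in wild type. That of wx1 (GRMZM2G024993) was 288 RPKM in dek44 and 3191 RPKM in wild type. The starch synthase gene du1 (GRMZM2G141399), named for its known link to both factors after its values were seen, had 55.6 RPKM in dek44 and 139 RPKM in wild type. Its level was 1.74 times that of pbf1 in dek44 and 2.17 times in wild type, against 0.689 times that of o2 in dek44 and 0.305 times in wild type.

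The genes whose levels in both libraries were most like those of a regulator were found by distance in the plane of log2(RPKM + 1) in dek44 and in wild type, among 2042 expressed genes with a reference name. Such likeness over 2 libraries describes levels and no shared control. Nearest to o2 was the aquaporin gene pip2b (GRMZM2G092125), at 79.1 RPKM in dek44 and 504 RPKM in wild type and a distance of 0.15. The cystatin gene cc10 (GRMZM2G030717) followed at 0.59 and the starch synthase gene ss1 (GRMZM2G129451) at 0.63, ss1 with 59.8 RPKM in dek44 and 332 RPKM in wild type. Nearest to fl3 was sdh1 (GRMZM2G175423), at 2908 RPKM in dek44 and 6244 RPKM in wild type and a distance of 0.20, followed by the globulin gene glb3 at 0.42 and fps1 at 1.04.

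Nearest to pbf1 was the gene S6K (GRMZM2G080001), at 33.4 RPKM in dek44 and 58.2 RPKM in wild type and a distance of 0.15, followed by FBL2 at 0.27 and the expansin gene expa2 at 0.31. Neighbours of the OHP genes lay at smaller distances. For ohp1 these were Zm-upl, sbp7 and LAZ1-3, at distances of 0.039 to 0.057, and for ohp2 they were DDT2, ak1 and the sucrose transporter gene sut4, at 0.018 to 0.045. Such distances also depend on how many genes lie near a given level and ratio. The class of pbf1, ohp1 and ohp2 held 11139 expressed genes, that of o2 1550 and that of fl3 106.

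Zeins, the defining transcripts of the labelled tissue, were abundant in both libraries and summed to 48597 RPKM in dek44 and 300897 RPKM in wild type. Markers of the basal transfer layer and the embryo-surrounding region were higher in dek44, against 31.6% of all expressed genes. Of 11 names of the basal transfer layer 10 were expressed and 10 of these were at least 2-fold higher, with a sum of 3589 RPKM in dek44 and 427 RPKM in wild type over the expressed ones. Of the embryo-surrounding region 2 of 2 were higher (118 RPKM in dek44 and 8.27 RPKM in wild type). Aleurone markers, 1 of 3 higher (154 RPKM in dek44 and 54.0 RPKM in wild type), and embryo markers, 1 of 4 higher without a homonym (483 RPKM in dek44 and 403 RPKM in wild type), were near the share of all genes. Green tissue markers reached at most 1.34 RPKM in dek44 and 0.508 RPKM in wild type, and none of these markers was at 0 in either library. The part of such cell types in the ratios of the regulators was not tested.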

How the data were processed

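RNA-seq libraries of dek44 and wild-type endosperm, 1 each, were used. Total RNA had been extracted with Trizol and treated with DNase I, per the labels' protocols. The deposited values are RPKM, per the file headers; Bowtie 0.12.2 and build B73 RefGen_v3 are named in the submitters' processing notes. The sources used here do not give the counting rule, the gene lengths or the use of strand.

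Since RPKM is whole reads over length and total, totals and smallest reads per gene were recovered in Python 3.11.15. All 39505 genes above 0 came out whole, within 0.001 reads plus a relative 5e-09, for some length of 100 to 20000 bases. A factor shared by both totals would not show, and true reads may be a multiple of the smallest. The procedure was tested on simulated data. Fold intervals are exact conditional binomial (Clopper-Pearson, scipy 1.17.1); intervals of a ratio between genes across libraries use a normal approximation on the log scale. Zeins and other lists were found by symbol patterns in RefSeq's gene table (assembly Zm-B73-REFERENCE-NAM-5.0), which matched 16689 identifiers. It is another build, so no coordinates are given.

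Regulators and lists were chosen with earlier results of these data known. Named were the 5 regulators, identifiers sharing their names, all members of the lists of Opaque2 targets and other endosperm regulators, up to 4 by ratio and 2 by level of other lists, and the 3 nearest named genes per regulator; du1 and gz27 were added. Alternatives were pseudocounts, filters, thresholds and scalings.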

Additional observations from a re-analysis of the deposited data

How the results depend on the processing

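No paired analysis was possible because there is 1 library of each genotype, and leaving out replicates could not be run for the same reason. Pseudocounts of 0.1, 5 and 0, which cannot change a sign, moved the log2 ratios of the 5 regulators by less than their counting error. The 3 scalings shift every ratio downward, so among the regulators a change of sign was open to ohp2 alone, and it stayed above 0. With the median ratio set to 0 the ratios were -3.11 for o2, -1.61 for pbf1, -0.95 for ohp1, 0.31 for ohp2 and -1.66 for fl3. Rescaled to the summed RPKM of all but the 100 top genes, they were -3.10, -1.59, -0.91, 0.34 and -1.67 in the same order. Rescaled to the sum without the zeins found by name, they were -2.71 for o2, -1.21 for pbf1, 0.72 for ohp2 and -1.27 for fl3. Under that scaling ohp1 moved by less than its counting error, to -0.54. These scalings move all genes by 1 factor or 1 shift.

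Regulators at least 2-fold lower numbered 2 as reported, 3 with a pseudocount of 0.1, with no pseudocount (added after the data were seen) and under the 3 scalings, and 1 (o2) at 4-fold. Among all expressed genes, 1116 lower and 9529 higher as reported, the counts were 543 and 4192 with a pseudocount of 5, 3284 and 3703 with the median set to 0, 2513 and 4290 on the sum without the 100 top genes and 260 and 2084 at 4-fold. Opaque2 targets at least 2-fold lower numbered 1 as reported and 2 under each of the 3 scalings, lkrsdh1 being the gene added. The interval of ohp1 includes no difference; it rests on the smallest reads the RPKM allows, so its width may come from the recovery of reads and not from depth.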
